A study of Mus musculus with 6 samples.

Results

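The genes described here encode the appendages and the rootlet of the basal body, the centriole that anchors a cilium to the cell. They are 10 genes chosen by name from the 22851 gene symbols of a deposited count table. All 10 were found and all 10 passed the filter on low counts, with 335 to 3481 reads per gene and library. Their roles divide them into the distal appendage genes Cep83, Cep89, Sclt1, Fbf1 and Cep164, the subdistal appendage genes Odf2, Nin and Cntrl, and the rootlet genes Crocc and Crocc2.

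Distal appendages are blades at the distal end of the mother centriole that attach it to the membrane before a cilium can grow. Subdistal appendages anchor microtubules, and in multiciliated cells they are known as basal feet, which take part in aligning the cilia of a cell. The rootlet is a striated fibre that runs from the base of the basal body into the cell. Ependymal cells, which line the brain ventricles, make many centrioles at once and dock each of them as a basal body.

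The libraries came from radial glial cells, neural progenitors isolated from C57BL/6J mouse brains on postnatal days 0 to 3. Cells were grown in medium with 10% serum and then kept without serum for 6 days to become multiciliated ependymal cells. There were 3 wild-type (WT) libraries and 3 libraries from Edf1 knockout (KO) mice made with CRISPR/Cas9, both with the same culture and induction, and the design calls the libraries of a genotype biological replicates. Edf1 is known as a coactivator of transcription and as a protein that detects collided ribosomes. The labels name no Cre driver, clone or pooling, so the knockout is described only as that of the mouse.

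Total counts were 13071766 to 28087006 per library, lowest in WT replicate 2. Edf1 itself had 80.2 to 85.9 CPM (counts scaled to the size and composition of each library) in WT and 9.84 to 13.2 in KO, so each of the 6 libraries fitted its label. All 10 markers of ependymal cells on a fixed list were detected. Their summed level was 1950 to 2243 CPM in WT and 1142 to 1205 in KO, and 9 of the 10 fell, all except Mia. Microglia markers summed to 2087 to 2222 CPM in WT and 1411 to 1454 in KO, with 10 of 12 lower. Markers of fibroblasts, mural and endothelial cells summed to 610.5 to 641.8 CPM in WT and 847 to 930.9 in KO, with 7 of 8 tested genes higher. Of that list Cldn5 was at or under 3 reads in every library, and Rgs5, Pecam1 and Cdh5 were also too low to test. Summed radial glia and astrocyte markers were 9932 to 10410 CPM in WT and 10890 to 11320 in KO, with 1 gene lower and 3 higher. Neuron markers summed to 254 to 330.1 CPM in WT and 273.7 to 290.4 in KO, with 2 of 7 tested genes lower. Oligodendrocyte markers summed to 440.2 to 480.5 CPM in WT and 413.2 to 428.5 in KO. Of the 7 tested, 1 was lower and 1 higher. Over all tested genes 14.2% were called lower and 12.7% higher (adjusted p under 0.05 by edgeR). The part of these cell types in the results below was not tested, and in such bulk RNA fewer cells of a type and less RNA per cell cannot be told apart.

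Promoter sequences of the 3 genes with the largest falls in KO are shown first, so that they can be compared. Each window runs from 250 bases before to 50 bases after the annotated start, 5′ to 3′ along the gene, in RefSeq's GRCm38.p6. Capitals mark GTTGCC or its reverse complement GGCAAC, an arm of the X-box that RFX factors, regulators of cilia genes, bind. The Crocc2 window is chr1:93168173-93168472 on the plus strand, that of Crocc is chr4:141060496-141060795 on the minus strand, and that of Cep83 is chr10:94688540-94688839 on the plus strand.
Crocc2: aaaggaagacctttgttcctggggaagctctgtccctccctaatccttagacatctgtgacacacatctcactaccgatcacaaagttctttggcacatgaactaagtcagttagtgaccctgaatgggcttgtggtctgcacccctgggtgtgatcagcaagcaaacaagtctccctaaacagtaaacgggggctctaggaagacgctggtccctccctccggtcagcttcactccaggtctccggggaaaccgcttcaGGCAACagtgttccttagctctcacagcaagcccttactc
Crocc: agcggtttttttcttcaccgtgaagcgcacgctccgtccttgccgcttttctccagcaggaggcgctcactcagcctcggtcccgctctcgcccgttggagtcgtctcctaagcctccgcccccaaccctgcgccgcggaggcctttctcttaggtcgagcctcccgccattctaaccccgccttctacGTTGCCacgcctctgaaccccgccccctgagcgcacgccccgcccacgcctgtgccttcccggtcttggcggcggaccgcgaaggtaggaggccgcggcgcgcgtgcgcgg
Cep83: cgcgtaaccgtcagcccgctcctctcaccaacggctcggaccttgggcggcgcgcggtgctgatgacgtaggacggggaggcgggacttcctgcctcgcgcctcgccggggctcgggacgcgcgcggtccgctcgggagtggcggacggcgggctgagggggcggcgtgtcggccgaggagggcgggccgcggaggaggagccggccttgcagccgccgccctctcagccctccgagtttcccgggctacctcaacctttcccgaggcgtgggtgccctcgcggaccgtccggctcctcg
The Crocc2 window holds the arm in reverse orientation, beginning at position 10 after the start given by RefSeq. That window ends at 93168472, before the gene start of 93168725 in the GENCODE annotation used for gene coordinates below. These annotations thus differ in where Crocc2 starts. The Crocc window holds the arm in forward orientation at position -61. A further Crocc window, chr4:141053612-141053911 on the minus strand, is not shown and holds none. The Cep83 window also holds none. RefSeq lists 19 windows for the 10 genes, of which 5 windows from 4 genes (Crocc, Crocc2, Cep164 and Cntrl) hold GTTGCC on either strand. The Cntrl windows among these begin at 35109242 and 35109246, overlap almost wholly and hold the same matches. Among all 32851 mouse promoter windows of the same length 12.5% hold GTTGCC, a share per window and not per gene. The forkhead core TGTTTAC was in 0 of the 19 windows and in 3.65% of all, and the E2F core TTGGCGC was in 2 windows, of Sclt1 and Nin, and in 2.45% of all. These are matches of letters on both strands, not measured binding.

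Most basal body appendage and rootlet genes were lower in KO, by small amounts except for Crocc2. In edgeR's quasi-likelihood test over all 14243 tested genes, 7 of the 10 fell (adjusted p under 0.05) and 0 rose. DESeq2 and limma voom called the same 7 genes and also 0 higher. At an unadjusted p under 0.05 the edgeR test had 0 of the 10 higher. Of all tested genes 26.9% were called in either direction and 14.2% were called lower. The median log2 fold change was -0.29 over the 10 genes and 0.0029 over all tested genes. KO libraries lay below every WT library for 7 of the 10 genes. Over all tested genes the groups did not overlap for 43.3%, and for 22.1% every KO library was the lower. The genes without a call were Cep89, Sclt1 and Cntrl.

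**Figure D1:**
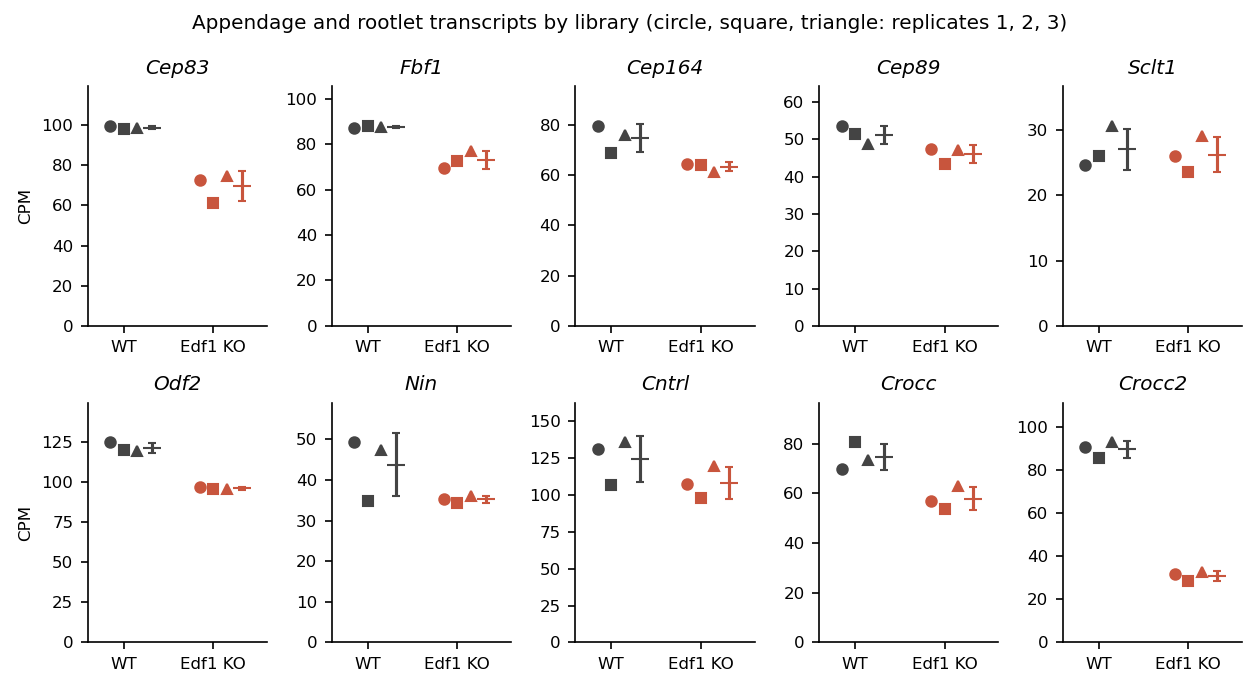
Level of each gene in CPM (vertical axes, from 0) in the 3 WT and 3 KO libraries, with the mean and SD beside the points. Crocc2 separates most widely, at 85.5 to 93.0 CPM in WT and 28.5 to 33.0 in KO, whereas Sclt1, Nin and Cntrl overlap.

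The rootlet genes held the largest change. Crocc2 (ENSMUSG00000084989, chromosome 1, 93168725 to 93231072, plus strand), named as a family member of rootletin, had 91.0, 85.5 and 93.0 CPM in WT replicates 1, 2 and 3. In KO replicates 1, 2 and 3 it had 31.7, 28.5 and 33.0 CPM. Every KO library was thus far below every WT library, and the KO mean was 34.5% of the WT mean. Crocc2 fell by 1.53 on the log2 scale (SE 0.068, adjusted p = 4.87e-08 by edgeR), and only 44 of the 14243 tested genes had a lower log2 fold change.

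Crocc (ENSMUSG00000040860, chromosome 4, 141016637 to 141060550, minus strand) encodes rootletin, the main protein of the rootlet fibre. It had 69.9, 80.5 and 73.6 CPM in WT and 56.7, 53.7 and 62.9 CPM in KO. The groups did not overlap, though the highest KO and the lowest WT library were close. Crocc fell by 0.36 on the log2 scale (SE 0.073, adjusted p = 0.00284 by edgeR), to 77.4% of WT.

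The rootlet genes therefore did not move alike in size. The log2 ratio of Crocc2 to Crocc was 0.088 to 0.38 in the WT libraries and -0.93 to -0.84 in the KO libraries, a difference of -1.16 between the means. An exact two-sided permutation test gave p = 0.1, the smallest that 3 against 3 libraries can give, and 0.105 after adjustment over the 21 ratios tested. Per kilobase of the longest coding transcript (7132 bases for Crocc2 and 6582 for Crocc), the levels of these genes were near each other in WT, at 12.6 ± 0.54 and 11.4 ± 0.82 CPM per kilobase (SD, n = 3). In KO they were 4.35 ± 0.32 for Crocc2 and 8.78 ± 0.71 for Crocc. Crocc2 made up 54.6%, 49.5% and 53.8% of their sum in WT and 34.0%, 32.9% and 32.6% in KO. The summed rootlet level was 23.9 ± 0.48 CPM per kilobase in WT and 13.1 ± 1.01 in KO (SD, n = 3). No stretch of 31 bases in either transcript occurs in a transcript of another annotated gene, and their exons overlap no other gene.

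**Figure D2:**
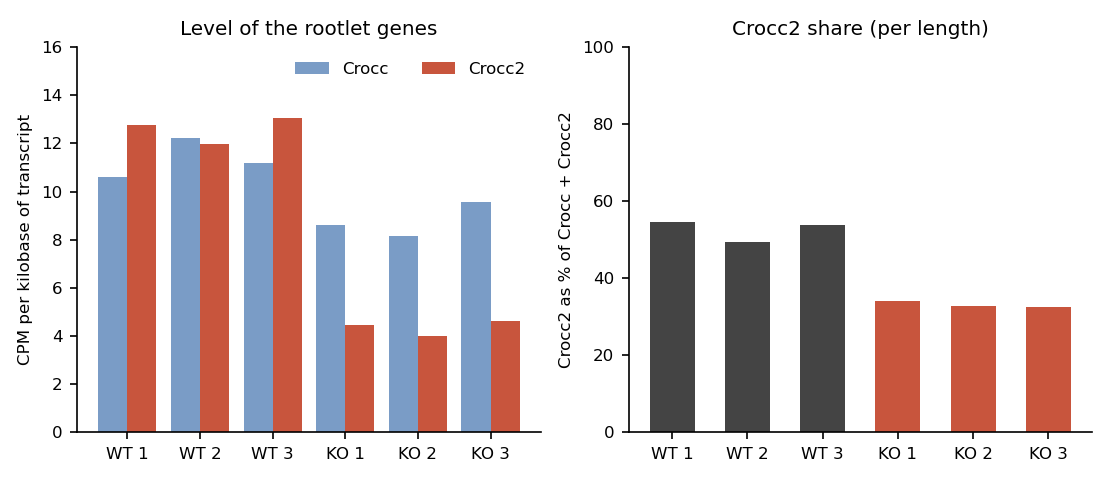
Left, level of Crocc and Crocc2 in CPM per kilobase of transcript in each library; right, Crocc2 as a percentage of the sum of both. In WT the bars of both genes are of like height, and in KO the Crocc2 bar is at 3.99 to 4.62 against 8.16 to 9.55 for Crocc.

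Of the distal appendage genes 3 of the 5 fell. Cep83 (chromosome 10, 94688654 to 94790853, plus strand) lies at the base of the appendage assembly order and recruits the other blade proteins. It had 99.6, 98.2 and 98.4 CPM in WT and 72.8, 61.2 and 74.8 CPM in KO. The WT libraries were almost equal and all KO libraries were well below them. Cep83 fell by 0.50 on the log2 scale (SE 0.072, adjusted p = 0.000237 by edgeR), the second largest fall of the 10 genes.

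Fbf1 (chromosome 11, 116142285 to 116168166, minus strand), whose protein sits between the blades near the membrane, had 87.2, 88.0 and 87.6 CPM in WT and 69.3, 72.6 and 77.2 CPM in KO. The groups did not overlap. Fbf1 fell by 0.26 on the log2 scale (SE 0.057, adjusted p = 0.00517 by edgeR). Cep164 (chromosome 9, 45766946 to 45828691, minus strand), the outer blade protein that binds the kinase TTBK2, had 79.4, 68.8 and 75.7 CPM in WT and 64.3, 64.1 and 61.2 CPM in KO. Its WT replicate 2 was closest to the KO libraries. Cep164 fell by 0.25 on the log2 scale (SE 0.064, adjusted p = 0.0127 by edgeR), a call that was lost without WT replicate 1 (-0.19, adjusted p = 0.0796 by edgeR) or KO replicate 3 (-0.22, adjusted p = 0.0752 by edgeR).

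The remaining distal appendage genes did not pass. Cep89 (chromosome 7, 35397035 to 35438689, plus strand), a blade component recruited through Cep83, had 53.5, 51.4 and 48.7 CPM in WT and 47.5, 43.2 and 47.2 CPM in KO. Every KO library was below every WT library, by a small margin. Its log2 fold change was -0.16 (SE 0.065, adjusted p = 0.0941 by edgeR). Sclt1 (chromosome 3, 41626720 to 41742514, minus strand), a further component of the blades, had 24.6, 26.0 and 30.6 CPM in WT and 25.9, 23.6 and 29.0 CPM in KO. These values interleave. Its log2 fold change was -0.039 (SE 0.10, adjusted p = 0.815 by edgeR), with an interval of 2 SE from -0.24 to 0.16, so a fall of the size seen for Cep83 lies outside the interval and one of the size seen for Cep89 lies inside it. The direction of Sclt1 turned without WT replicate 3 (0.063) or KO replicate 2 (0.029).

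Of the subdistal appendage genes 2 of the 3 fell. Odf2 (chromosome 2, 29889221 to 29931746, plus strand) encodes cenexin, which is needed for the basal feet. It had 124.9, 120.5 and 119.3 CPM in WT and 97.3, 95.9 and 95.7 CPM in KO. Both groups were tight and far apart relative to their spread. Odf2 fell by 0.34 on the log2 scale (SE 0.051, adjusted p = 0.000368 by edgeR).

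Nin (chromosome 12, 70011435 to 70113717, minus strand) encodes ninein, which anchors microtubules at the subdistal appendage. It had 49.2, 34.8 and 47.4 CPM in WT and 35.4, 34.3 and 36.0 CPM in KO. WT replicate 2 lay among the KO libraries, and the other WT libraries lay above all of them. Nin fell by 0.33 on the log2 scale (SE 0.11, adjusted p = 0.0379 by edgeR). This call was lost without WT replicate 1 (-0.23, adjusted p = 0.176 by edgeR), WT replicate 3 (-0.27, 0.107), KO replicate 1 (-0.33, 0.107), KO replicate 2 (-0.31, 0.119) or KO replicate 3 (-0.34, 0.0991), and without WT replicate 2 Nin was at -0.45 (adjusted p = 9.87e-06 by edgeR).

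Cntrl (chromosome 2, 35109492 to 35178822, plus strand) encodes centriolin, a subdistal appendage protein that also acts at the end of cell division. It had 131.1, 106.9 and 135.6 CPM in WT and 107.5, 97.6 and 119.6 CPM in KO, with WT replicate 2 again inside the KO range. Its log2 fold change was -0.20 (SE 0.091, adjusted p = 0.118 by edgeR). Without WT replicate 2 it was -0.30 and passed (adjusted p = 0.0011 by edgeR).

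WT replicate 2 differed from the other WT libraries by transcript length across the whole table. For the longest 25% of tested genes its median deviation from the WT mean was -0.11 on the log2 scale, and for the shortest 25% it was 0.093. Cep164, Fbf1, Cntrl, Nin, Crocc and Crocc2 belong to that longest class. Of these, Cep164, Cntrl, Nin and Crocc2 were lowest among WT in replicate 2, while Crocc and Fbf1 were highest in it. When trends of the libraries with GC content and length were corrected for, Nin was at -0.44 (adjusted p = 5.87e-05 by edgeR) and Cntrl at -0.29 (adjusted p = 0.00183 by edgeR). This correction also removes trends that differ between the genotypes, beyond the deviation of WT replicate 2. In KO against WT the median log2 fold change was 0.087 for the longest 25% and -0.067 for the shortest 25%. Those medians include WT replicate 2, and how much of them comes from that library was not tested. Crocc moved to -0.53 under the correction, and to -0.31 without WT replicate 2.

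**Figure D3:**
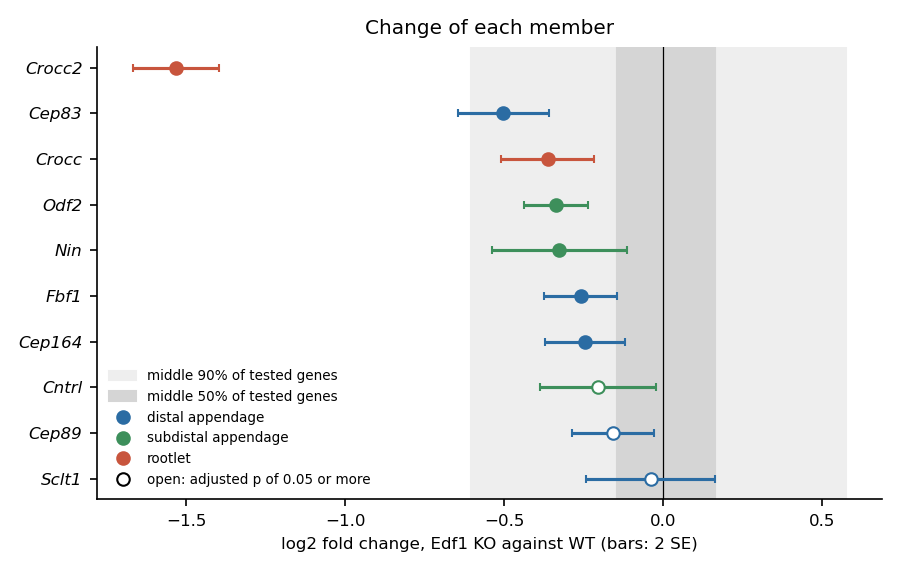
Log2 fold change of KO against WT for each gene (horizontal axis) with bars of 2 SE, coloured by role, filled where the adjusted p was under 0.05. The dark and light bands hold the tested genes between the 25th and 75th and between the 5th and 95th percentiles, and Crocc2 at -1.53 is the only one of the 10 points outside the light band, which ends at -0.60.

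The order of levels per length was compared within each genotype. In WT, Odf2 was highest at 30.7 ± 0.74 CPM per kilobase, followed by Cep83 at 27.1 ± 0.20 and Cep89 at 19.6 ± 0.94 (SD, n = 3). Fbf1 and Cntrl came next, at 16.7 and 16.4 CPM per kilobase with overlapping ranges. Crocc2, Cep164 and Crocc followed at 12.6, 12.2 and 11.4, where each overlapped the next. Sclt1 at 9.01 and Nin at 4.42 CPM per kilobase were the lowest, and neither overlapped its neighbour in this order.

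In KO the order was largely the same, with Odf2 first at 24.3 ± 0.22 CPM per kilobase and Nin last at 3.55 ± 0.091 (SD, n = 3). Crocc2 moved from place 6 to place 9, below Sclt1 and above Nin, and its range overlapped neither. Cep83 at 19.1 CPM per kilobase overlapped Cep89 at 17.6, which it had not done in WT. The ranges of Cntrl and Fbf1, and of Crocc and Sclt1, also overlapped. These levels depend on the transcript chosen for the length, since the table does not show which isoforms were read. Since the strand setting is not given, overlaps with other genes were also measured: 0.978% of the exonic bases of Odf2 and 0.47% of those of Nin overlap a gene on the opposite strand, and the other 8 genes overlap none.

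Levels were also set against a regulator and an amplification gene of the multiciliated programme. Foxj1, the transcription factor that activates motile cilia genes, fell by 0.59 on the log2 scale, and Deup1, a core protein of the deuterosomes on which new centrioles are built, fell by 1.27 (adjusted p = 3.41e-06 and 1.25e-07 by edgeR). Relative to Foxj1, 8 of the 10 genes had a higher ratio in every KO library than in any WT library, Crocc2 had a lower one, and Cep83 overlapped. Over all tested genes 85.8% had such a higher ratio to Foxj1 and 2.41% such a lower one, so the count of 8 is near the background set by the fall of Foxj1 itself. Relative to Deup1, 9 of the 10 were higher without overlap, as were 96.3% of all tested genes, which again follows from the choice of Deup1. Crocc2 was again lower, as were 0.176% of all tested genes, with a log2 ratio to Deup1 of -1.49 to -1.21 in WT and -1.62 to -1.59 in KO. For each ratio without overlap the exact two-sided permutation p was 0.1 (0.105 adjusted over the 21 ratios), the smallest possible, so none could pass 0.05.

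Partner genes of these structures, taken from 5 lists written from general knowledge, were then counted. The lists were chosen with earlier results of these data known. Of 45 listed genes 44 were tested, 20 fell and 0 rose, against 14.2% of all tested genes called lower and 12.7% called higher. At an unadjusted p under 0.05, 2 partners were higher, Cep170 and Rab34, and DESeq2 and limma voom called 0 higher. The number of partners called lower depended on the setting. It was 14 to 24 over all alternatives and 14 to 23 in the fits that left out a library. The number called higher was 0 to 1 over all alternatives, and the gene was Rab34 each time. The median log2 fold change of the partners was -0.18. The 14.2% of all tested genes called lower is also the background for the count in each list below. Ccdc102b was not analysed here. Among the genes named below, those with the largest fall in a list were named by rule and the others after their values were seen.

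Of 11 partners of the distal appendages 2 fell, a share near the 14.2% of all tested genes called lower. The median log2 fold change was -0.015, a value that turned above 0 in 4 of the 6 fits that left out a library. Inpp5e, a ciliary phosphoinositide phosphatase, fell from 30.7 ± 0.57 to 26.5 ± 1.46 CPM (SD, n = 3), by 0.21 on the log2 scale (adjusted p = 0.0496 by edgeR). The other called gene was Kiz at -0.18. Ttbk2, the kinase recruited by Cep164 to start cilium growth, was at 0.063 and did not pass (adjusted p = 0.747 by edgeR).

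Genes that build the distal end of the centriole, on which the appendages form, had 7 of 10 genes called lower, with a median log2 fold change of -0.30. Kif24, a kinesin that acts at the centriole cap, fell from 28.0 ± 2.11 to 19.0 ± 0.50 CPM (SD, n = 3), by 0.57 on the log2 scale (adjusted p = 0.00022 by edgeR). C2cd3, which is required for distal appendage assembly, was at -0.31, Cep120 at -0.37 and Pibf1 at -0.35. The gene 2700049A03Rik, which encodes the mouse Talpid3 protein, was at -0.53.

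Among subdistal appendage partners 4 of 11 fell, with a median log2 fold change of -0.037 that turned to 0.012 without KO replicate 2. Cep128, which lies at the base of the subdistal appendage, fell from 107.5 ± 3.65 to 63.99 ± 0.75 CPM (SD, n = 3), by 0.75 on the log2 scale (adjusted p = 1.26e-06 by edgeR). Cep43 was at -0.70, Cep350 at -0.31 and Tchp at -0.24. The microtubule and dynactin genes Mapre1 and Dctn1 were at 0.021 and 0.055 and did not pass. The log2 fold change of Cep128 was lower than those of Odf2, Nin and Cntrl, a difference between genes that was not tested.

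Of the rootlet and centriole linker partners 3 of 5 tested genes fell, with a median log2 fold change of -0.25. Nek2, a kinase that releases the linker between centrioles and is also a cell cycle gene, fell from 45.6 ± 2.76 to 25.4 ± 1.30 CPM (SD, n = 3), by 0.85 on the log2 scale (adjusted p = 4.81e-06 by edgeR). Pcnt was at -0.35 and Cdk5rap2 at -0.25, and Cep250, the linker protein that binds rootletin, was at 0.0035 (adjusted p = 0.979 by edgeR). Markers of dividing cells summed to 570.7 to 600.0 CPM in WT and 553.9 to 591.0 in KO, with 4 of 8 lower and 3 higher.

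In the list of docking and orientation genes 4 of 7 fell. Cibar2, which works with Cby1 at the ciliary base, fell from 21.7 ± 2.02 to 9.66 ± 1.26 CPM (SD, n = 3), by 1.15 on the log2 scale (adjusted p = 1.23e-05 by edgeR). Spef1 was at -0.97, Bbof1, known for basal body orientation, at -0.84 and Cby1 at -0.81. The other members Cibar1, Dzip1 and Dzip1l were at -0.030, 0.021 and 0.022 and did not pass. The list therefore holds a group at or below -0.81 and a group near 0, with no gene between them.

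For scale, a list of deuterosome and procentriole genes had 9 of 10 called lower with a median log2 fold change of -0.69. A list of axonemal dynein heavy chains had 12 of 15 called lower with a median of -0.61. The 10 appendage and rootlet genes had a median of -0.29, and Crocc2 was the only one of them at or below either of those medians. The difference between the lists was not tested.

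**Figure D4:**
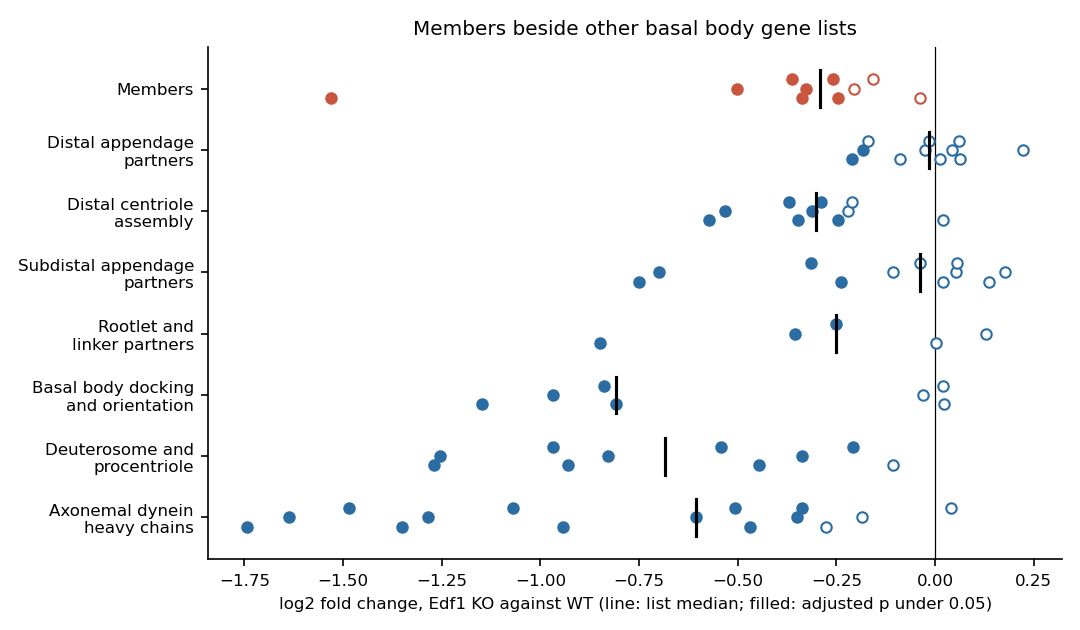
Log2 fold change of KO against WT for each tested gene (points, filled where the adjusted p was under 0.05) in the 10 appendage and rootlet genes and in 7 other lists, with a line at each list's median. Distal appendage partners lie around 0 with a median of -0.015, while the docking list splits between values near 0 and values from -0.81 to -1.15.

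Across the 15 other settings, Crocc2 stayed between -1.66 and -1.48, and Crocc, Odf2, Cep83 and Fbf1 were called lower in each. The 10 genes yielded 5 to 8 calls under those settings and the stricter threshold of 0.01, each of them lower in KO.

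**Figure D5:**
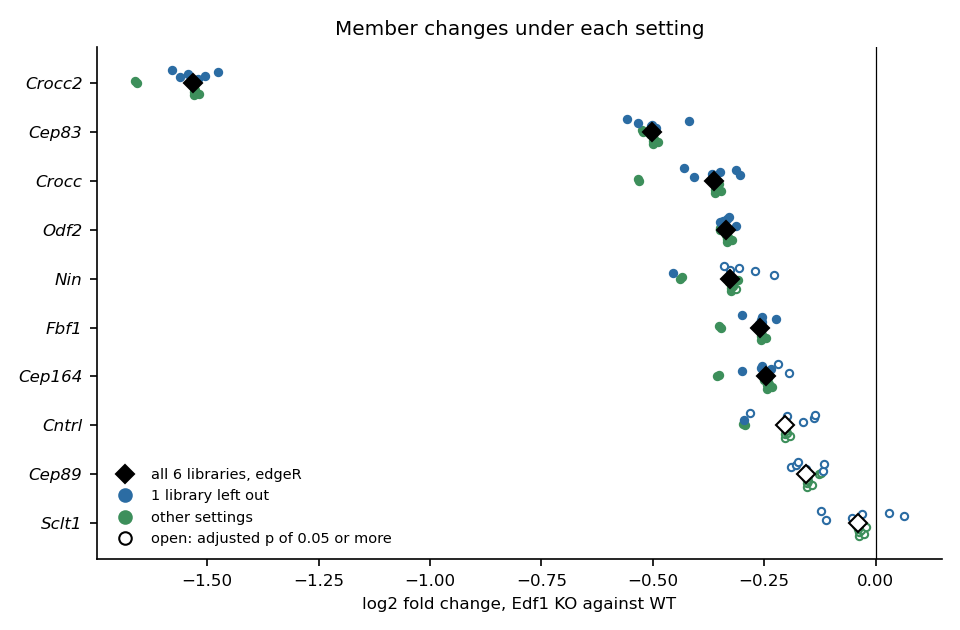
Log2 fold change of each gene under every setting (points) and in the reported fit (diamonds), filled where the adjusted p was under 0.05. Nin has 6 open points, Cep164 has 2, Cntrl has 4 filled points, and only Sclt1 has points above 0.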

How the data were processed

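Whole-number read counts per gene symbol were deposited, and each library has its own column. The submitters' processing notes name GRCm38, FastQC 0.11.2, cutadapt 1.11 and HISAT2 2.1.0. The counting program, annotation and strand setting are not given in the sources used here. Columns were matched to samples by genotype and replicate number, and 0 rows named no gene and 0 sample columns were unused.

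Genes were filtered with filterByExpr (14243 of 22851 kept) and tested KO against WT with edgeR 4.0.16 (R 4.3.3, TMM factors, quasi-likelihood test, no covariate). P-values were adjusted over the whole table by Benjamini-Hochberg and called under 0.05. SE is the log2 fold change over the root of F. Levels are CPM on TMM-scaled library sizes. Transcript lengths, coordinates and exon overlaps are from GENCODE M21 (GRCm38), using the longest coding transcript, and promoters are from RefSeq. Depth was 13071766 to 28087006 counts per library, which limits precision for low genes.

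The members, lists and tests were chosen with earlier results of these data known. Genes named by rule are the 10 members, Edf1, Foxj1, Deup1 and, per partner list, the largest called fall and rise. Other partners were named after their values were seen. Alternatives were DESeq2 1.42.0, limma voom (limma 3.58.1), other scalings and filters, the replicate number as a block, a GC content and length correction with splines of 4 degrees of freedom, a threshold of 0.01 and each library left out. On counts simulated for 14243 genes with 200 changed 2-fold, edgeR recovered 91.0% and 7.14% of its calls were false. With the replicate block, 14.0% were false. No replicate, GC content or length effect was simulated, and fewer genes changed than the 3833 called in the data. Only 2-fold changes were simulated, so these shares do not cover smaller ones. Of the 10 members only Crocc2 changed by 2-fold or more. The shares also cannot show whether a block suits these data.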

Additional observations from a re-analysis of the deposited data

How the results depend on the processing

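Every alternative kept Crocc2, Crocc, Odf2, Cep83 and Fbf1 past the threshold and Cep89 and Sclt1 short of it. Nin no longer passed with library size alone (-0.31, adjusted p 0.0556 by edgeR), and its values ran from -0.45 to -0.23 in the fits that left out a library. Those ranges were -0.30 to -0.19 for Cep164, -0.30 to -0.14 for Cntrl and -0.12 to 0.063 for Sclt1. Cntrl passed with the replicate block (-0.20), with the GC content and length correction (-0.29) and with both (-0.30). The median of the distal appendage partners ran from -0.088 to 0.018 over those fits, and that of the subdistal partners from -0.14 to 0.012. Partner genes called higher numbered 1, namely Rab34, with library size alone, with the replicate block, with the GC content and length correction and with both, and 0 to 1 with a library left out. The count of all changed genes was 3833, or 2213 at a threshold of 0.01, and 2658 to 4340 with a library left out. The cause was not tested.

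Deviations of same-numbered WT and KO libraries from their genotype means correlated at 0.069, 0.060 and 0.037, and every library correlated best with its own number. These values are low, and whether the numbers mark pairs was not tested. The replicate block gave 4065 changed genes and 8 called members. Reads per member and library numbered 335 to 3481, lowest for Sclt1 and highest for Cntrl. The SE was 0.10 for Sclt1, 0.11 for Nin and 0.091 for Cntrl. Changes as small as that of Cep89 (-0.16) therefore cannot be told from 0 for these genes.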
